A study of Mus musculus with 22 samples.

Results

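The data described here are the binding regions and chromatin marks at Vdr, the mouse gene that encodes the vitamin D receptor (VDR). Every region was taken whose centre lay between 100 kb upstream of the gene's start and 100 kb downstream of its end. In genome build mm9 the gene (ENSMUSG00000022479.9) occupies chr15:97684856-97741061 on the minus strand and spans 56206 bp, and the window spans 256206 bp. It held 137 of the 360258 regions that the 22 deposited lists have on chromosomes 1 to 19 and X: 51 of 91886 transcription factor regions and 86 of 268372 histone mark regions. The rule that chose them uses position alone. Positions below are in kb from the start of Vdr-001, the transcript with 10 exons whose start lies at base 97738741, and positive positions run into the gene. Transcripts Vdr-004 and Vdr-006 start at -2.32 kb, Vdr-005 at -1.25 kb and Vdr-002 at 11.5 kb.

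Chromatin immunoprecipitation sequencing (ChIP-seq), which recovers the DNA bound by a protein or carrying a histone mark, was done in MC3T3-E1, a mouse pre-osteoblast line that forms mineralized matrix in culture. Differentiated cells had been grown for 15 days with ascorbic acid and glycerol-2-phosphate, and undifferentiated cells had not. Either kind was given 100 nM of calcitriol (1,25-dihydroxyvitamin D3, the hormonal form of vitamin D) or ethanol vehicle for 3 h. VDR and its partner RXR have a list for each state with calcitriol and with vehicle, which makes 8 lists. C/EBPβ, RUNX2 and the marks H3K4me3, H3K9ac, H4K5ac, H3K4me1 and H3K36me3 have 1 list per state with calcitriol, and their vehicle lists were not analysed here. All cells were of 1 line at passages 5 to 12. Cultures of the differentiated state also went through a homogenizer and a sucrose cushion that took out the matrix, so preparation and state cannot be told apart. The sample labels give H4K5ac where the protocol text has H3K5Ac, and the sample labels were followed.

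VDR is a nuclear receptor that binds calcitriol and acts on genes mostly as a dimer with RXR. The element best known for this dimer is the DR3, a direct repeat of a 6-base word with a 3 bp spacer. In mouse bone cells the Vdr gene is itself raised by calcitriol, and enhancers within its introns and upstream of its start are known to take part in this autoregulation. C/EBPβ and RUNX2 are transcription factors of the osteoblast lineage that occur at many enhancers of these cells. H3K4me3 marks active starts, H3K9ac and H4K5ac mark active starts and enhancers, H3K4me1 marks enhancers, and H3K36me3 marks transcribed gene bodies.

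The 5 stretches below are the mm9 sequences where VDR was found with calcitriol, read on the plus strand, so that transcription of Vdr runs from right to left. They are shown because the comparisons between hormone and vehicle and between the 2 states turn on them. The intron 3 site (chr15:97709221-97709487) joins the overlapping VDR regions of differentiated and undifferentiated cells. The intron 2 region (chr15:97717954-97718154), the near upstream region (chr15:97744630-97744830), the far upstream region (chr15:97745687-97745887) and the region in the neighbouring gene Hdac7 (chr15:97642673-97642873) were VDR regions of undifferentiated cells. All lie outside annotated exons. Capitals mark DR3 matches with at most 2 mismatches, RUNX matches (TGTGGTT or TGTGGTC or TGCGGTT or TGCGGTC) and C/EBP matches (TTGCNNAA or TTACNNAA), the last 2 without mismatch, on either strand.
Intron 3 site: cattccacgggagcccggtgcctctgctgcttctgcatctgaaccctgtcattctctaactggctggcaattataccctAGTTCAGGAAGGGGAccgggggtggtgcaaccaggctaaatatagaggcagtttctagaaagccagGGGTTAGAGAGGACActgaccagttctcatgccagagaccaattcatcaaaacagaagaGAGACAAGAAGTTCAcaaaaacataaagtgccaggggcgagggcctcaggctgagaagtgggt
Intron 2 region: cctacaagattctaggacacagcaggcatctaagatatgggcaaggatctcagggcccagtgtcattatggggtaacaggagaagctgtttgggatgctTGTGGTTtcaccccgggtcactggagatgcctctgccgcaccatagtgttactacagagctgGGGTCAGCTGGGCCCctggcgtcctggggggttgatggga
Near upstream region: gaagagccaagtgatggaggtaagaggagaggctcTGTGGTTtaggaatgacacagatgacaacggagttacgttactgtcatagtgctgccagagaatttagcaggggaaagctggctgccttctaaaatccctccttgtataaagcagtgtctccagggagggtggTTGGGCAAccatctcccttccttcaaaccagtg
Far upstream region: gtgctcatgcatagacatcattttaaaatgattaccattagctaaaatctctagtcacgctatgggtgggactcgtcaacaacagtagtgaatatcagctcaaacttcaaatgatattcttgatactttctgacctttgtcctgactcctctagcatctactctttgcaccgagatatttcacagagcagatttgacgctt
Hdac7 region: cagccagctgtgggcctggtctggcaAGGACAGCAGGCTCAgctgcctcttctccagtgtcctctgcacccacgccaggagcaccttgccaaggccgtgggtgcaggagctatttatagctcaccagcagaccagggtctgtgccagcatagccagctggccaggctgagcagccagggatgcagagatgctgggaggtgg

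Each group has 1 list, so none of the differences below has a replicate check, and each is a comparison of lists. The lists carry no read counts, so depth is unknown. Of 9 osteoblast genes, H3K4me3 lay within 1 kb of a start in 8 in either state and H3K9ac in 9 in either state. Of 14 genes of blood, muscle, neurons, endothelium and liver, both marks lay at 0 in either state. The share of protein-coding genes that reach the number of regions found at Vdr is given beside each count as a background, over 22350 genes with the same window rule.

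The VDR protein was found in the window of its own gene in both states with calcitriol. It had 1 region in differentiated and 5 in undifferentiated cells, and 1 of the 5 lay in the body of Hdac7, beyond the end of Vdr. In differentiated cells the window held 1 VDR region with calcitriol and 0 with vehicle, in lists of 871 and 274 regions. At least 1 VDR region with calcitriol was found in the windows of 13.0% of genes in that state, and 1676 of 22350 genes had at least 1 more with calcitriol than with vehicle. In undifferentiated cells it held 5 with calcitriol and 2 with vehicle, in lists of 7000 and 937 regions. Of all genes, 3.85% had at least 5 with calcitriol and 4.56% had at least 2 with vehicle, and 2011 of 22350 had at least 3 more with calcitriol than with vehicle. Vdr thus stood among the genes with many VDR regions in undifferentiated cells, and 43.3% of genes had at least 1 there.

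**Figure D1:**
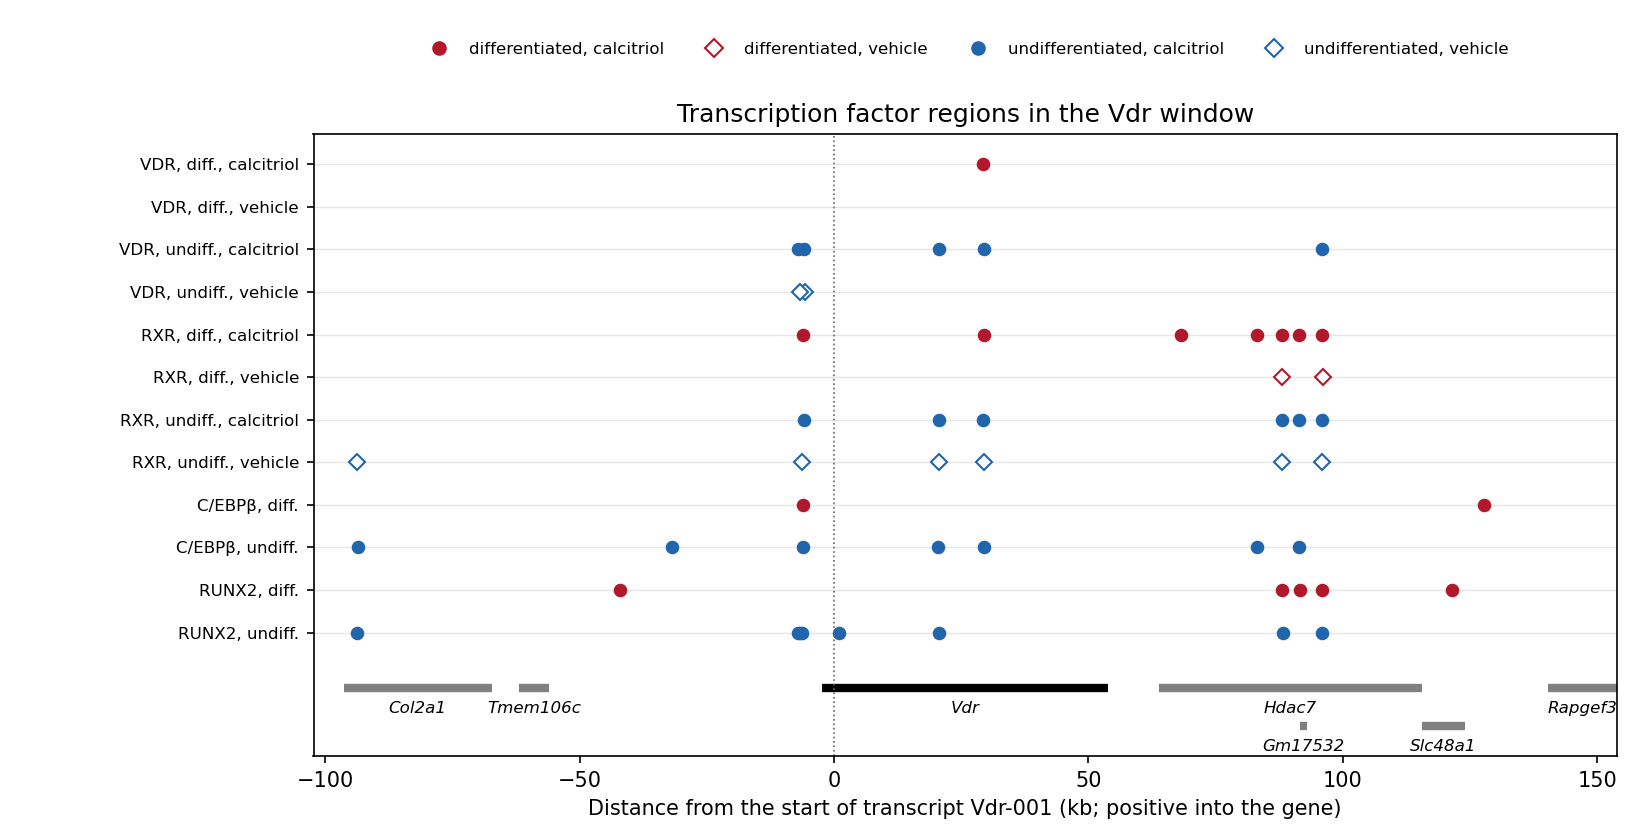
Centres of the 51 transcription factor regions in the Vdr window, by list (rows) and by distance in kb from the Vdr-001 start (horizontal axis), with differentiated cells in red, undifferentiated cells in blue, calcitriol filled and vehicle open; grey and black bars are genes. VDR has 1 point in differentiated and 5 in undifferentiated cells with calcitriol, and only the intron 3 point is in both.

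The single VDR region of differentiated cells lay in intron 3, at 29.4 kb, in the same place as a VDR region of undifferentiated cells. Their centres, at 29.354 and 29.42 kb, differed by 66 bp. The other 4 VDR regions of undifferentiated cells had no counterpart: those in intron 2 at 20.7 kb, upstream at -5.99 and -7.05 kb, and in Hdac7 at 96.0 kb. So 1 of 5 regions in the window was also called in differentiated cells, beside 794 of 7000 in the whole list (11.3%, exact Clopper-Pearson 95% interval 10.6 to 12.1%). A drop of at least 4 VDR regions was found in 5.33% of all genes, but in 93.3% of the 861 genes that had at least 5 in undifferentiated cells. Of those 861 genes, 58.8% had at least 1 VDR region in differentiated cells, as Vdr did.

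Joining the factor regions of all 12 lists that lay within 500 bp of one another gave 14 sites in the window. VDR was found at 4 of them, and these held 30 of the 51 factor regions. Differentiated cells had a region at 10 sites and undifferentiated cells at 10, with 6 in both, 4 in differentiated cells only and 4 in undifferentiated cells only. How often joined sites elsewhere in the genome occur in 1 state only was not counted. With calcitriol the differentiated lists placed 15 regions and the undifferentiated lists 26. The whole lists of VDR, C/EBPβ and RUNX2 were also shorter in differentiated cells, at 871, 16557 and 7919 regions. In undifferentiated cells they held 7000, 17950 and 12012. The RXR list was longer in differentiated cells, at 8126 against 7591. Within the Vdr gene lay 3 sites, in introns 1, 2 and 3, and no factor region lay between the intron 3 site and 68.1 kb, inside Hdac7.

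The intron 3 site, 267 bp wide, kept both partners of the receptor dimer in either state. In differentiated cells with calcitriol it held VDR and RXR, and with vehicle it held neither. In undifferentiated cells with calcitriol it held VDR, RXR and C/EBPβ, and with vehicle it held RXR but no VDR. The 6 centres fell within 66 bp of one another, and the VDR and C/EBPβ regions of undifferentiated cells have the same first and last base in the deposited lists. RUNX2 was not called there in either state. This was the place in the Vdr gene where RXR was listed with calcitriol but not with vehicle in differentiated cells.

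The intron 2 site, between 20.5 and 20.7 kb, was bound in undifferentiated cells only. Its 5 regions were VDR, RXR, C/EBPβ and RUNX2 with calcitriol and RXR with vehicle, with centres spread over 182 bp. None of the 6 factor lists of differentiated cells had a region at this site. In intron 1 the only factor region was RUNX2 of undifferentiated cells at 0.913 kb, which was also the only factor region within 1 kb of any Vdr start.

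The upstream site, 1575 bp long and centred at -6.39 kb, held more regions than any other site in the window, 12 in all. Its centre lies 4070 bp upstream of the nearest Vdr start, that of Vdr-004 and Vdr-006. In differentiated cells it held RXR with calcitriol at -6.03 kb and C/EBPβ at -6.06 kb, and no VDR, RUNX2 or vehicle RXR region. In undifferentiated cells with calcitriol it held VDR at -5.99 and -7.05 kb, RXR at -5.91 kb, C/EBPβ at -6.07 kb and RUNX2 at -6.24, -6.62 and -7.08 kb. C/EBPβ was thus listed within 9 bp of the same place in both states, whereas the 3 RUNX2 regions had no counterpart in differentiated cells.

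Vehicle lists of undifferentiated cells also had VDR upstream of the gene, but in regions listed beside and not on the calcitriol regions. The vehicle regions were centred at -5.70 and -6.67 kb, and the nearest calcitriol centres lay 286 and 377 bp away. None of the 2 vehicle regions shared a base with a calcitriol region, beside 785 of 937 in the whole vehicle list (83.8%, 81.3 to 86.1%). Over that list the median distance to the nearest calcitriol centre was 26 bp, and 34 regions (3.63%) had it more than 200 and at most 500 bp away. RXR with vehicle was centred at -6.26 kb, between the 2 vehicle VDR regions. When centres within 500 bp were counted as shared, both vehicle regions had a calcitriol counterpart, so the regions shared the site and not the exact position.

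**Figure D2:**
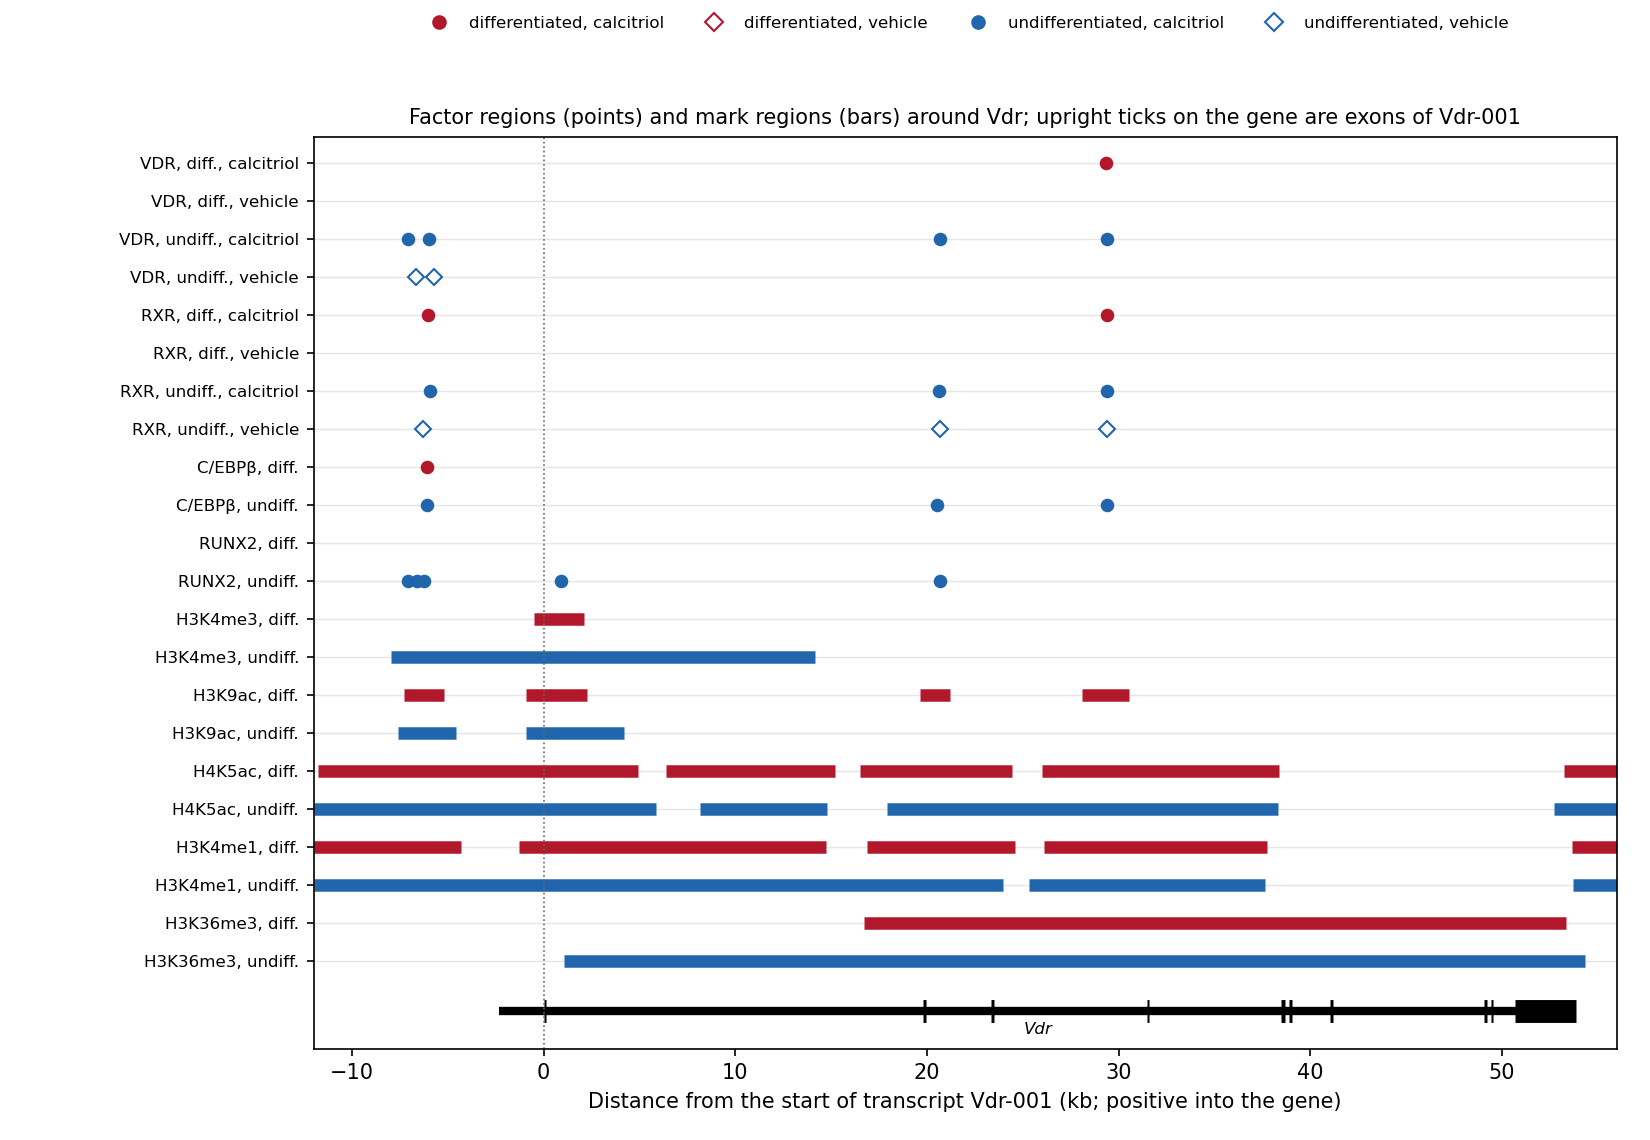
Factor regions (points, at their centres) and mark regions (horizontal bars) from upstream of Vdr to just past its end, by list, against distance in kb from the Vdr-001 start; differentiated cells are red, undifferentiated cells blue, vehicle open, and upright ticks on the black gene bar are exons. H3K4me3 runs from -0.523 to 2.13 kb in differentiated and from -7.98 to 14.2 kb in undifferentiated cells, and H3K9ac bars lie at the intron 2 and intron 3 sites in differentiated cells only.

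In differentiated cells the window gained more regions of RXR than of VDR with calcitriol. There the window held 7 RXR regions with calcitriol and 2 with vehicle, in lists of 8126 and 4815 regions. At least 7 were found at 2.42% of genes with calcitriol and at least 2 at 17.0% of genes with vehicle, and a gain of at least 5 was found at 0.765% of genes. Both vehicle regions were among the 7, so 2 of 7 calcitriol regions were also called with vehicle, beside 52.6% of the whole calcitriol list (51.5 to 53.7%). The 5 RXR regions listed with calcitriol only lay at the upstream site, at the intron 3 site and at 68.1, 83.2 and 91.5 kb in Hdac7.

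In undifferentiated cells the count of RXR regions was the same with and without hormone. It was 6 with calcitriol and 6 with vehicle, in lists of 7591 and 7834 regions, and 3.73% and 4.01% of genes had at least as many. Of the 6 calcitriol regions, 4 shared at least 1 base with a vehicle region, beside 69.3% of the whole list (68.2 to 70.3%). The 2 without were the upstream region at -5.91 kb, whose vehicle neighbour is at -6.26 kb, and the Hdac7 region at 91.5 kb. Between the states most RXR regions with calcitriol recurred: 5 of the 7 regions in differentiated cells overlapped one in undifferentiated cells, beside 57.7% of that list (56.6 to 58.7%). The count was 1 higher in differentiated cells, as it was, by at least 1, in 19.0% of genes, and with 200 kb on either side of the gene it was 10 in either state.

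RXR accompanied VDR at most of the receptor's places. In differentiated cells 1 of 1 VDR region overlapped RXR, beside 66.0% of the list (62.8 to 69.2%). In undifferentiated cells RXR with calcitriol overlapped 4 of 5 VDR regions, beside 60.0% of the list (58.8 to 61.2%), and the one without was the far upstream region. C/EBPβ overlapped 3 of 5 there, beside 44.1% of the list, at the near upstream, intron 2 and intron 3 regions. RUNX2 overlapped 3 of 5, beside 54.0%, at the far upstream, intron 2 and Hdac7 regions. RXR was already listed with vehicle at 3 of the 5, namely intron 2, intron 3 and Hdac7, beside 49.3% of the list.

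C/EBPβ and RUNX2 were listed at fewer places of the Vdr window in differentiated cells. The C/EBPβ lists had 2 regions in the window in differentiated cells and 7 in undifferentiated cells, and 44.5% and 8.61% of genes had at least as many. The full lists were close in length, with 16557 and 17950 regions. A drop of at least 5 C/EBPβ regions was found at 1.05% of all genes and at 11.2% of the 1925 genes with at least 7 in undifferentiated cells. Of the 7 regions of undifferentiated cells 1 was also called in differentiated cells, the upstream one, beside 64.7% of the whole list (64.0 to 65.4%). The other region of differentiated cells lay at 127.7 kb, beyond Slc48a1. Those listed in undifferentiated cells only lay in introns 2 and 3, in Hdac7 at 83.2 and 91.5 kb, at -31.9 kb and near a start of Col2a1.

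RUNX2 had 5 regions in the window in differentiated cells and 8 in undifferentiated cells, in lists of 7919 and 12012 regions. At least as many were found at 5.28% and 3.55% of genes. A drop of at least 3 was found at 11.8% of all genes and at 72.9% of the 793 genes with at least 8 in undifferentiated cells. The fall in number at Vdr was therefore of a common size for RUNX2. The places differed more: the 5 regions of differentiated cells lay at -42.1 kb, at 3 sites in Hdac7 and at 121.4 kb in Slc48a1, with none in Vdr or at its upstream site. In undifferentiated cells 5 of the 8 lay at the upstream site, in intron 1 or in intron 2. Of the 8 regions 2 were also called in differentiated cells, both in Hdac7, beside 43.1% of the whole list (42.3 to 44.0%).

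Hdac7, a class IIa histone deacetylase gene that follows Vdr on the same strand, held 5 of the 14 sites, and RXR with calcitriol was listed at all 5 in differentiated cells and at 3 in undifferentiated cells. At 88.1 kb RXR was listed in all 4 RXR lists and RUNX2 in both states. At 96.0 kb the same 6 regions occurred together with VDR of undifferentiated cells with calcitriol. The site at 91.5 kb held RXR with calcitriol in both states, RUNX2 in differentiated cells and C/EBPβ in undifferentiated cells. The remaining 2, at 83.2 and 68.1 kb, held RXR of differentiated cells with calcitriol, the first also with C/EBPβ of undifferentiated cells. These regions are nearer to the starts of Hdac7 or Gm17532 than to a start of Vdr, and which gene they act on is not given by the lists.

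H3K4me3 around the Vdr start was much narrower in differentiated cells. One region covered the Vdr-001 start in either state, from -0.523 to 2.13 kb (2649 bp) in differentiated cells and from -7.98 to 14.2 kb (22162 bp) in undifferentiated cells. The ratio of widths was 0.120, beside a median of 0.482 over the 6771 H3K4me3 regions of undifferentiated cells with an overlapping region in differentiated cells, and 170 of them (2.51%) had a ratio as low. The wide region of undifferentiated cells took in the upstream site and a large part of intron 1, and 256 of 6983 regions (3.67%) were as wide, where the median was 5256 bp. In the whole window H3K4me3 covered 9.24 kb in differentiated and 62.9 kb in undifferentiated cells, a ratio of 0.147, beside 0.433 over the genome. A ratio as low was found at 2.92% of the 15330 genes with any H3K4me3 in undifferentiated cells. As large a covered share was found at 23.2% of genes in differentiated and 1.75% in undifferentiated cells.

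**Figure D3:**
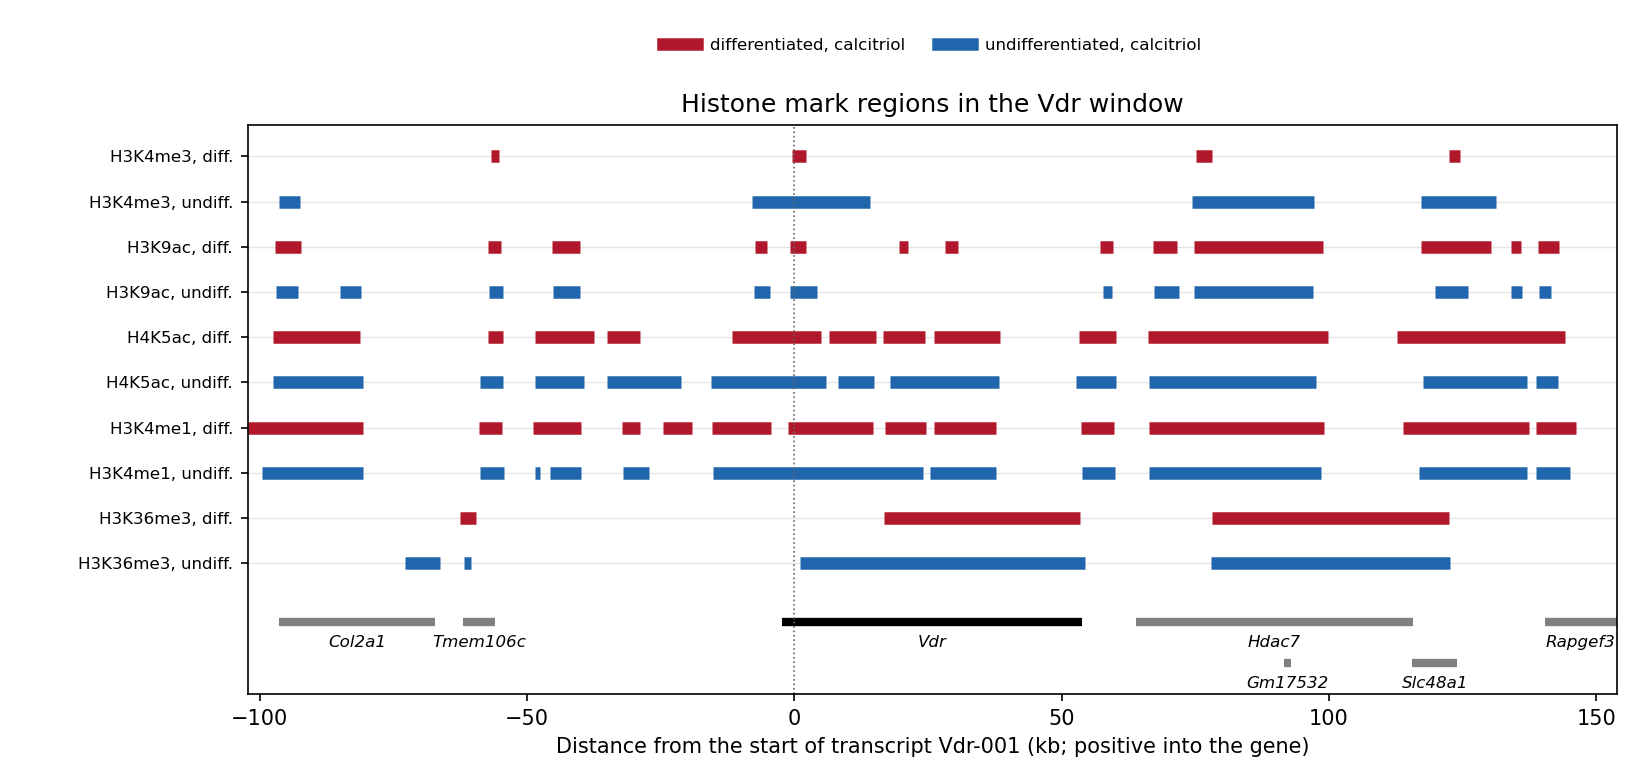
Histone mark regions in the Vdr window (bars) by mark and state, all with calcitriol, against distance in kb from the Vdr-001 start; differentiated cells are red, undifferentiated cells blue, and gene bars stand at the bottom. The H3K4me3 bars at Vdr, Hdac7 and Slc48a1 are 2649, 3014 and 2054 bp wide in differentiated cells and 22162, 22771 and 13978 bp wide in undifferentiated cells.

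Of the neighbours of Vdr, Hdac7 and Slc48a1 also had narrower H3K4me3 in differentiated cells. The H3K4me3 region in Hdac7 was 3014 bp wide in differentiated and 22771 bp in undifferentiated cells, and that at the start of Slc48a1, a heme transporter gene, was 2054 bp and 13978 bp wide. Tmem106c, which encodes a transmembrane protein, had H3K4me3 at its start in differentiated cells only. Col2a1, the gene of the cartilage collagen type II, had it in undifferentiated cells only, together with a site of RXR (vehicle), C/EBPβ and RUNX2 at -93.7 kb. The H3K4me3 regions at Tmem106c and Col2a1 both lay low in their lists by deposited score. In differentiated cells 15.9% of the list scored lower than the Tmem106c region. In undifferentiated cells 2.86% of the list scored lower than the Col2a1 region. Rapgef3, an exchange factor for Rap proteins at the edge of the window, had no H3K4me3 in either state. The start of Rapgef3 carried H3K9ac in both states.

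H3K9ac differed the other way at the intronic sites. The upstream site and the Vdr start carried it in both states, in regions of 2136 and 3164 bp in differentiated cells and of 2998 and 5126 bp in undifferentiated cells. Intron 2 and intron 3 carried it in differentiated cells only. These regions ran from 19.6 to 21.2 kb (1594 bp) and from 28.1 to 30.5 kb (2438 bp). By deposited score the intron 2 region lay near the bottom of its list, with 5.87% of regions lower. For the intron 3 region the share was 37.2%. The whole H3K9ac list was also longer in differentiated cells, with 22868 regions against 17189 in undifferentiated cells. In differentiated cells the intron 3 site thus had H3K9ac together with VDR, and the intron 2 site had it where no factor was listed. In undifferentiated cells VDR was listed at both sites without H3K9ac. There H3K9ac overlapped 3 of 5 VDR regions of the window, beside 60.6% of the whole VDR list with calcitriol. In differentiated cells it overlapped 1 of 1, beside 80.0% of the list, so neither count stood apart from its list. Within the gene H3K9ac covered 7.20 kb in differentiated and 5.13 kb in undifferentiated cells, a ratio of 1.40, beside 1.32 over the genome. In the window it covered 72.3 kb and 63.0 kb, and 2.58% and 2.04% of genes had as large a covered share.

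H4K5ac and H3K4me1 covered most of the locus in both states and differed little between them. In the window H4K5ac covered 156.9 kb in differentiated and 157.5 kb in undifferentiated cells, shares reached by 1.28% and 1.97% of genes. The ratio was 0.996, beside 0.834 over the genome. H3K4me1 covered 162.5 kb in differentiated and 154.3 kb in undifferentiated cells, shares reached by 0.850% and 1.31% of genes. For this mark the ratio was 1.05, beside 0.990 over the genome. All 5 VDR regions of undifferentiated cells with calcitriol, and the one of differentiated cells, lay in both marks, as most VDR regions of the lists did. In undifferentiated cells 97.6% of the VDR list overlapped H4K5ac and 96.3% overlapped H3K4me1. In differentiated cells these shares were 94.0% and 93.2%. H3K4me1 was continuous from -15.2 to 24.0 kb in undifferentiated cells, while in differentiated cells it was broken between -4.32 and -1.27 kb, a stretch that holds the start of Vdr-004 and Vdr-006, and between 14.7 and 16.9 kb in intron 1.

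H3K36me3 began further into the gene in differentiated cells. It ran from 16.7 to 53.4 kb (36633 bp) in differentiated and from 1.08 to 54.4 kb (53272 bp) in undifferentiated cells, so that exons 2 to 9 and most of exon 10 were covered in both. It covered 65.2% of the gene in differentiated and 93.9% in undifferentiated cells, a ratio of 0.694, beside 0.877 over the genome. A ratio as low was found at 7.38% of the 9261 genes with at least 50% of the body covered in undifferentiated cells. The part of intron 1 without H3K36me3 in differentiated cells, up to 16.7 kb, was longer than the part that H3K4me3 covered in undifferentiated cells, up to 14.2 kb. Over the window as large a share was found at 35.0% of genes in differentiated and 27.6% in undifferentiated cells, so the total was ordinary.

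**Figure D4:**
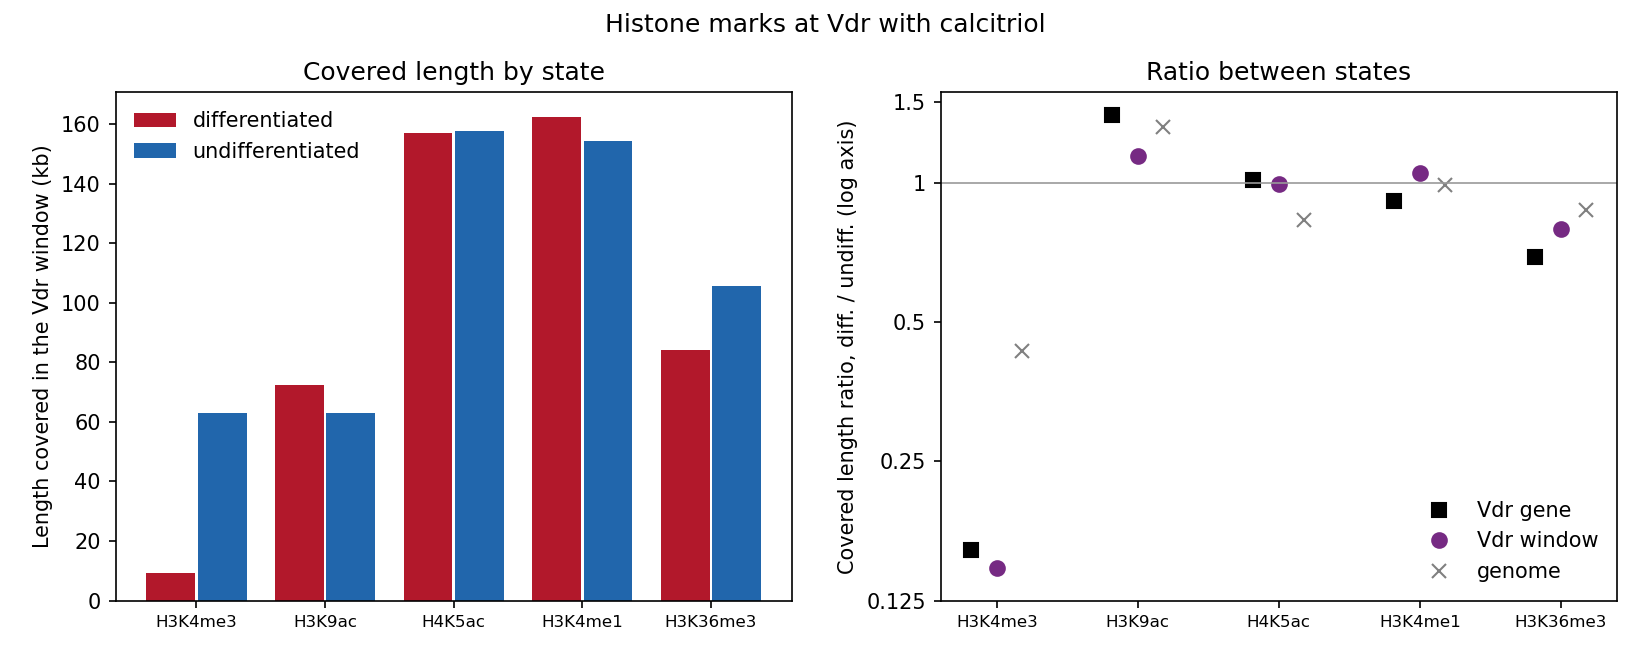
Left, length covered by each mark in the Vdr window (kb) in differentiated (red) and undifferentiated (blue) cells with calcitriol. Right, ratio of covered lengths between the states on a log axis for the Vdr gene (squares), the window (circles) and the genome (crosses); H3K4me3 is lowest, at 0.161, 0.147 and 0.433.

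No DR3 match with at most 1 mismatch was found in any of the 51 factor regions of the window, whereas such a match was found in 24.0% of the whole VDR list of differentiated cells with calcitriol and in 14.8% of that of undifferentiated cells. These 2 lists supply 6 of the 51 regions, and in the other 10 factor lists the share was between 1.17% and 6.93%. No match says only that these letters are not in the regions. With 2 mismatches allowed, the single VDR region of differentiated cells and 3 of the 5 of undifferentiated cells had a match, beside 46.8% and 36.7% of the lists. The intron 3 site held 3 such matches. One, GGGTTAGAGAGGACA, had its centre 14 and 47 bp from the VDR and RXR centres of differentiated cells, and 52 and 1 bp from those of undifferentiated cells. Another, AGTTCAGGAAGGGGA, lay 80 and 19 bp from them in differentiated and 14 and 65 bp in undifferentiated cells, so no match was nearest to all 4 centres. The intron 2 region held GGGTCAGCTGGGCCC and the Hdac7 region AGGACAGCAGGCTCA, and neither upstream VDR region with calcitriol held any.

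The other elements appeared at about the rates of their lists. A RUNX match was found in 3 of 5 RUNX2 regions of differentiated and 3 of 8 of undifferentiated cells, beside 55.9% and 52.5% of the lists. A C/EBP match was found in 2 of 2 C/EBPβ regions of differentiated and 4 of 7 of undifferentiated cells, beside 56.5% and 53.3%. Among the VDR regions shown above, the near upstream region held 1 RUNX and 1 C/EBP match, and the intron 2 region held TGTGGTT 2 bp from its centre, where RUNX2 was listed in undifferentiated cells. No RUNX match was found in the intron 3 site, where RUNX2 was not listed. A match describes letters and is not evidence that a factor bound them.

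Among all protein-coding genes the window of Vdr was high for the enhancer marks and, in undifferentiated cells, for both receptors. In differentiated cells it was high for RXR with calcitriol. It was less so there for VDR with calcitriol and RXR with vehicle, where 13.0% and 17.0% of genes had at least as many. VDR with vehicle had 0 regions in that state. The window of Vdr is longer than most, since 19.6% of genes have a longer one and the median is 215.4 kb, and neighbouring genes share windows. The 5 genes most like Vdr in the 22 counts and covered shares, by the mean absolute difference in percentile rank, were Gga1 (3.34 points), Gm5614 (3.38), Cyb5r3 (3.80), Erp27 (4.10) and Pcp4l1 (4.22), where the median over all other genes was 40.9 points. Each had 1 VDR region in differentiated cells with calcitriol, and in undifferentiated cells with calcitriol they had 9, 9, 4, 14 and 5. Their covered share of H3K4me3, one of the values used for the ranking, was also lower in differentiated cells, for example 6.78% in differentiated and 26.3% in undifferentiated cells at Gga1, which encodes a Golgi adaptor, beside 3.60% and 24.6% at Vdr.

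**Figure D5:**
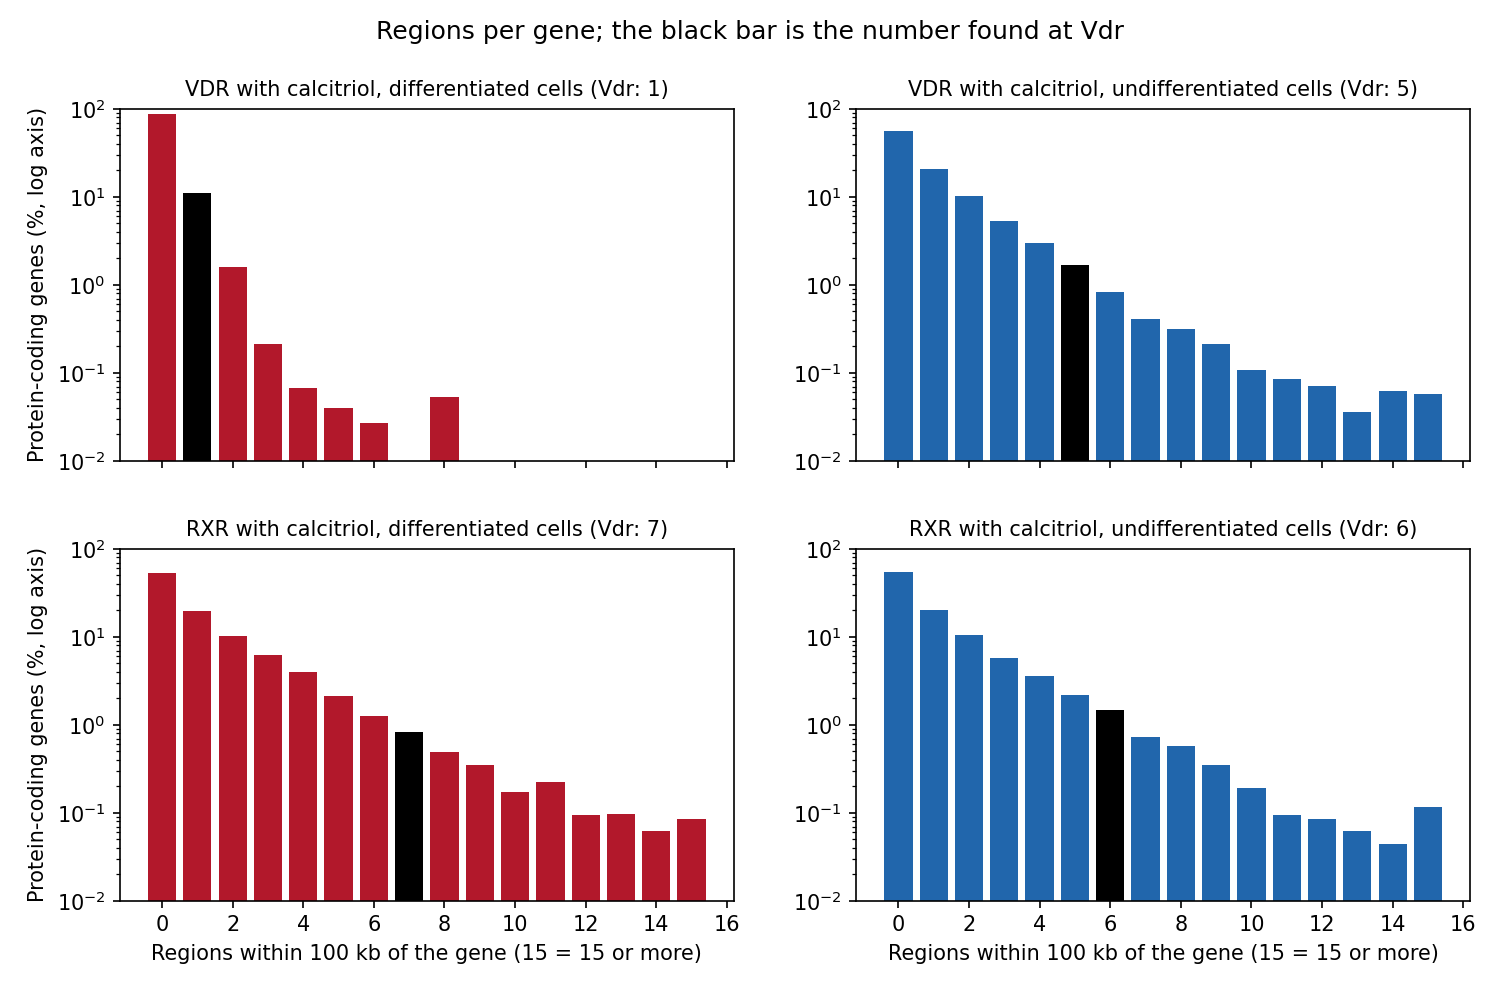
Share of protein-coding genes (percent, log axis) by the number of VDR (top) or RXR (bottom) regions with calcitriol within 100 kb, in differentiated (left, red) and undifferentiated (right, blue) cells; the last bar holds 15 or more. Black bars are the numbers at Vdr: VDR 1 and 5, RXR 7 and 6.

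Fewer genes of the vitamin D pathway had a VDR region in differentiated cells, and the same held for all genes. The VDR lists with calcitriol hold 871 regions in differentiated and 7000 in undifferentiated cells, so the fall is not particular to the pathway. Of the 20 listed genes, Vdr included, a VDR region with calcitriol lay within 100 kb of 4 in differentiated and 15 in undifferentiated cells, where 13.0% and 43.3% of all genes had one. With vehicle the numbers were 0 in differentiated and 8 in undifferentiated cells, where 6.44% and 16.7% of all genes had one. Among the receptors, Rxra and Rxrb, which encode partners of VDR, had 0 and 0 VDR regions in differentiated cells with calcitriol, against 11 and 7 in undifferentiated cells. Rxrg had 0 in either state.

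The listed genes of hormone synthesis and breakdown were Cyp2r1, Cyp27a1, Cyp27b1 and Cyp24a1. None had a VDR region in differentiated cells with calcitriol, where 13.0% of all genes had one, so none among so few is not unusual. Cyp24a1, which encodes the enzyme that inactivates calcitriol, had 3 in undifferentiated cells with calcitriol and 0 with vehicle. Cyp27b1, which encodes the enzyme that makes calcitriol, had 4 with calcitriol and 3 with vehicle. The corepressor gene Ncor1 had 1 in differentiated and 4 in undifferentiated cells with calcitriol, and the coactivator gene Ncoa3 had 2 and 4. For the uptake receptor gene Cubn the counts were 0 in differentiated and 5 in undifferentiated cells. Rxra and Rxrb had more VDR regions than Vdr in undifferentiated cells with calcitriol, and Cubn had as many.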

How the data were processed

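Region lists from 22 ChIP-seq samples of MC3T3-E1 cells were used. Bowtie and HOMER were run on mm9, per the submitters' processing notes, with versions not given in the sources used here. Biological replicates were prepared, per the labels. The deposited lists name regions by the number of peaks merged, 2 to 5 in the Vdr window, and no replicate has a list of its own. The score column deposited by the authors is 0 in every factor list, whose regions are all 201 bp wide. The deposited histone score is positive and of unstated meaning, and it entered 1 alternative, without the lowest 25% of each list. Depth is unknown.

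Regions were converted to 1-based positions and placed on NCBIM37 (mm9) with the GENCODE annotation of that build, in Python 3.11.15 with numpy 2.4.6, scipy 1.17.1 and matplotlib 3.10.9. Chromosomes 1 to 19 and X were used for the gene background, over 22350 protein-coding genes. Regions were shared at an overlap of at least 1 bp, and shares of lists carry exact Clopper-Pearson 95% intervals, which cover counting error only. No test between groups was run, since each has 1 list. Functions were tested on simulated data. Genes named are Vdr, its neighbours in the window, 20 pathway genes and the 5 genes nearest in percentile rank over the 22 lists, without those whose window overlaps that of Vdr. The gene and the lists were chosen with earlier results of these data known, although the window rule itself uses position alone. Values of single genes are given for part of the pathway list, and the rest are not reported here. Alternatives covered the window, the overlap rule, the score, motif mismatches and the genes ranked.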

Additional observations from a re-analysis of the deposited data

How the results depend on the processing

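Over the alternatives tried, 102 values stayed within 1.5 times of the value reported and 42 moved beyond it. The H4K5ac ratio between the states, 0.996 as reported, was 0.941 at 50 kb and 1.06 at 200 kb, so its direction was not stable. With 200 kb on either side of the gene, the RXR regions numbered 5 in differentiated cells with vehicle, and 10 with calcitriol and 10 with vehicle in undifferentiated cells. VDR with vehicle in undifferentiated cells then numbered 4. C/EBPβ numbered 6 in differentiated and 13 in undifferentiated cells, RUNX2 8 in differentiated cells, and 8 pathway genes had a VDR region in differentiated cells with calcitriol. With 50 kb, C/EBPβ numbered 1 in differentiated cells, and RXR numbered 6 with calcitriol and 5 with vehicle in undifferentiated cells. The share of genes with at least as many VDR regions as Vdr was 8.27% at 50 kb and 20.9% at 200 kb in differentiated cells with calcitriol, and 1.40% at 50 kb in undifferentiated cells. For RXR with calcitriol it was 0.846% in differentiated and 1.32% in undifferentiated cells at 50 kb. For RXR with vehicle in differentiated cells the share was 8.98% at 50 kb and 7.19% at 200 kb, for VDR with vehicle in undifferentiated cells 2.39% and 1.37%. At 200 kb it was 25.4% for C/EBPβ and 3.19% for H3K4me1 in differentiated cells. The other gene shares that moved lay between 0.849% and 21.2%. Vehicle VDR regions also called with calcitriol in undifferentiated cells numbered 2 when centres within 500 bp counted. With 2 mismatches, DR3 matches were found with calcitriol at 1 VDR and 3 RXR regions in differentiated cells. In undifferentiated cells with calcitriol they were found at 3 VDR and 2 RXR regions. The cause of these shifts was not tested beyond the wider or narrower rule itself. No paired analysis was possible because each group has 1 list. Lists without read counts do not show whether a missing region was absent or below the authors' threshold.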
